A study of Mus musculus with 9 samples.

Results

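The nuclear factor I (NFI) family of transcription factors was followed in single cells of the mouse neocortex at embryonic day E18.5. Its members were taken by name as the 4 genes *Nfia*, *Nfib*, *Nfic* and *Nfix*, of 17487 genes that have a row in at least 1 of the count matrices, and all 4 were listed for each of the 9 libraries. NFI proteins bind DNA as homodimers or heterodimers of the family and can activate or repress transcription. In the developing cortex, *Nfia* is known for its part in the switch from neurogenesis to gliogenesis, *Nfib* for the differentiation of radial glia and the formation of the forebrain commissures, and *Nfix* for the balance between proliferation and differentiation of progenitors. *Nfic* is best known outside the brain, in the growth of tooth roots.

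The study compared wildtype (WT) embryos with *Tcf4* knockout (KO) littermates from crosses of heterozygous mice, with the label Tcf4ex4WT/lacZ given as the strain of all of them. KO animals carry on both alleles a lacZ and neomycin cassette placed before exon 4, which removes the longest form of the TCF4 protein, is not limited to a cell type by a Cre and leaves shorter forms, so a 3′ library still counts *Tcf4* transcripts. Each library is 1 animal, 5 labelled WT (WT1 to WT5) and 4 labelled KO (KO1, KO2, KO4 and KO5), and the labels name no treatment. Genotypes were compared between WT2, WT3 and WT4 and the libraries KO4 and KO5, taken to be those of the study's own comparison. It kept libraries of more than 500 cells and left out 1 WT animal with lower *Tcf4* than the KO. The study does not name this animal, which is read here as WT5 from its *Tcf4* level. Below, the WT libraries are WT2, WT3 and WT4 and the KO libraries are KO4 and KO5, with values in this order.

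After filtering, 19681 cells were kept, from 118 to 6173 per library, with a median of 2217 to 4359 unique molecular identifiers (UMIs) per cell. A level is the mean over cells of UMIs per 10000 UMIs of the cell. Genotypes were compared over all kept cells of a library and within classes of cells, which were set by marker genes that held none of the NFI genes. In tissue-wide values, fewer cells of a type and less RNA per cell cannot be told apart. The class used as a reference for the others was that of newborn neurons, which had markers of young migrating neurons such as *Unc5d* and *Sema3c* beside *Neurod2* or *Neurod6*. They numbered 96, 217 and 384 in the WT libraries and 220 and 114 in the KO libraries. The library labelled WT5 had 124 and that labelled KO1 had 29, and WT1 and KO2, with 3 and 7, were too small for this class. At most 46 cell barcodes were shared by any pair of libraries.

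The targeted gene was measured first. *Tcf4* over all kept cells had a level of 12.2, 12.6 and 12.2 in the WT libraries and of 9.29 and 7.59 in the KO libraries (2-sided exact permutation test, p = 0.1, the smallest that 3 against 2 libraries allow). The libraries labelled WT1, WT5 and KO1 went against their labels, with 4.65, 7.20 and 16.7, and KO2 had 9.12. KO4, KO5 and the library labelled WT5 also stood apart in other ways. The level of *Actb*, the gene of cytoplasmic actin, over all kept cells was 172, 170.1 and 197 in these 3 libraries, against 40.5 to 64.3 in the WT libraries. WT1 and KO2 were high as well, with 200.3 and 142, and KO1 had 49.9. The 7 marker genes of microglia summed to 85.2 to 126 in the microglia-type cells of the WT libraries (6, 5 and 78 cells), and to 12.5 to 19.3 in those of KO4, KO5 and WT5, while *Neurod2* and *Neurod6*, which mark glutamatergic neurons, summed to 5.77 to 10.1 and to 11.2 to 13.0 in the same cells. The 6 endothelial markers summed to 61.6 to 106 and to 14.3 to 26.3 in endothelial-type cells. In newborn neurons, *Neurod2* and *Neurod6* summed to 18.51 to 21.0 and to 12.1 to 15.3. By these markers, the classes lay closer together in KO4, KO5 and WT5, and the part of this in the results below was not tested.

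The 4 genes lie at separate places of the genome (GRCm38, GENCODE vM21). *Nfia* (ENSMUSG00000028565) spans 97772734 to 98118874 on the plus strand of chromosome 4, and *Nfib* (ENSMUSG00000008575) spans 82290173 to 82705750 on the minus strand of the same chromosome. *Nfic* (ENSMUSG00000055053) spans 81396186 to 81455635 on the minus strand of chromosome 10, and *Nfix* (ENSMUSG00000001911) spans 84699876 to 84800344 on the minus strand of chromosome 8. Their annotated transcripts shared no stretch of 31 bases, except for 2 such stretches between *Nfic* and *Nfix*, so reads could be told apart between members. Exons of antisense genes overlap those of *Nfia* by 40 bases, of *Nfic* by 72 and of *Nfix* by 8 and 271.

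Over all kept cells, *Nfia* was higher in KO and none of the other members was. The level of *Nfia* was 2.81, 3.43 and 2.27 in the WT libraries and 8.002 and 7.57 in the KO libraries. The groups did not overlap, and the means were 2.83 ± 0.582 (SD, n = 3) and 7.79 ± 0.303 (SD, n = 2), a ratio of 2.75. On the scale of log2(level + 1), on which all log2 changes are given and which understates the change of low genes, the difference was 1.21 (standard error 0.14, adjusted p = 0.00803 from limma-trend). *Nfia* held rank 39 by p and rank 11 by rise among the 8554 genes tested, of which 98 passed an adjusted p of 0.05 (1.15%), 91 higher in KO (1.06%) and 7 lower (0.0818%). For 9.03% of all genes tested, the lower of the KO libraries exceeded the highest WT library. The call of *Nfia* was lost without WT2, KO4 or KO5, with log2 changes of 1.21, 1.17 and 1.24 (adjusted p = 0.0691, 0.0923 and 0.0868 from limma), and without a filter on low values (adjusted p = 0.0561 from limma).

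*Nfib* and *Nfix* went the other way without passing the test. *Nfib* had levels of 10.0, 13.5 and 10.1 in the WT libraries and of 8.02 and 6.81 in the KO libraries, a log2 difference of -0.53 (standard error 0.16, adjusted p = 0.154 from limma). Each KO library lay below each WT library, as was the case for 43.9% of all genes tested. *Nfix* had levels of 6.73, 6.40 and 5.01 in WT, then 5.04 and 4.496 in KO, which overlapped, with -0.28 (standard error 0.13, adjusted p = 0.219 from limma). *Nfib* and *Nfix* passed the test without WT4, with log2 changes of -0.59 and -0.39 (adjusted p = 0.0463 and 0.0406 from limma). Without WT4, 1394 genes were called, against 98 with all 5 libraries. *Nfic* was near the limit of detection, with 0.238, 0.186 and 0.240 in the WT libraries and 0.186 and 0.143 in the KO libraries, and a log2 difference of -0.069 (standard error 0.034, adjusted p = 0.232 from limma).

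In newborn neurons the rise of *Nfia* was called and so was a fall of *Nfib*. The level of *Nfia* was 3.23, 3.53 and 2.71 in the WT libraries and 9.49 and 7.95 in the KO libraries, with means of 3.16 ± 0.412 and 8.72 ± 1.09. On the log2 scale it rose by 1.23 (standard error 0.16, adjusted p = 2.35e-07 from limma, with 1.92% of all genes called as higher). *Nfib* had 15.6, 17.7 and 16.0 in WT, then 10.6 and 7.21 in KO, a fall by 0.84 (standard error 0.18, adjusted p = 0.00222 from limma, with 1.6% of genes called as lower). *Nfix* had 9.60, 7.83 and 7.63 against 5.83 and 5.02, with a log2 change of -0.54 that missed the threshold (adjusted p = 0.0525 from limma) and passed it after thinning to 1800 UMIs per cell (-0.56, adjusted p = 0.0448 from limma), without WT3 (adjusted p = 0.0411) and without WT4 (adjusted p = 0.00694). For all 3 genes the groups did not overlap. Over all kept cells this was the case for 9.03% of all genes upward and 43.9% downward, and the shares in newborn neurons are not given here. Radial glia markers were also higher in the newborn neurons of KO, with a sum over 8 genes of 1.45 to 1.63 in the WT libraries, 2.39 and 2.81 in the KO libraries and 2.47 in WT5, and the part of this in the changes was not tested.

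Changes of the members were then set against each other within each library. Over all kept cells, the log2 level of *Nfia* minus that of *Nfib* averaged -1.67 ± 0.12 over the WT libraries (SD, n = 3) and 0.066 ± 0.097 over the KO libraries (SD, n = 2), a shift of 1.74. For *Nfia* minus *Nfix* the shift was 1.49, from -0.88 ± 0.14 to 0.61 ± 0.046, and for *Nfia* minus *Nfic* it was 1.28, from 1.64 ± 0.25 to 2.92 ± 0.012. In newborn neurons the shifts were 2.06, 1.76 and 1.36. In all 6 the KO libraries lay above the WT libraries, at the smallest p the design allows (exact permutation tests, p = 0.1 each, and 0.1 after adjustment). Within these 5 libraries, the shift of *Nfia* against its relatives thus exceeded the spread between libraries of a group. No permutation test of this size can fall below 0.05. Over all kept cells of the libraries outside the comparison, *Nfia* minus *Nfib* was 0.878 in WT1, 0.333 in WT5, -1.57 in KO1 and 0.361 in KO2. For *Nfia* minus *Nfix* the values were 1.28, 1.004, 0.016 and 0.957 in the same order. WT1 and WT5 thus lay above both KO libraries of the comparison in both differences.

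**Figure D1:**
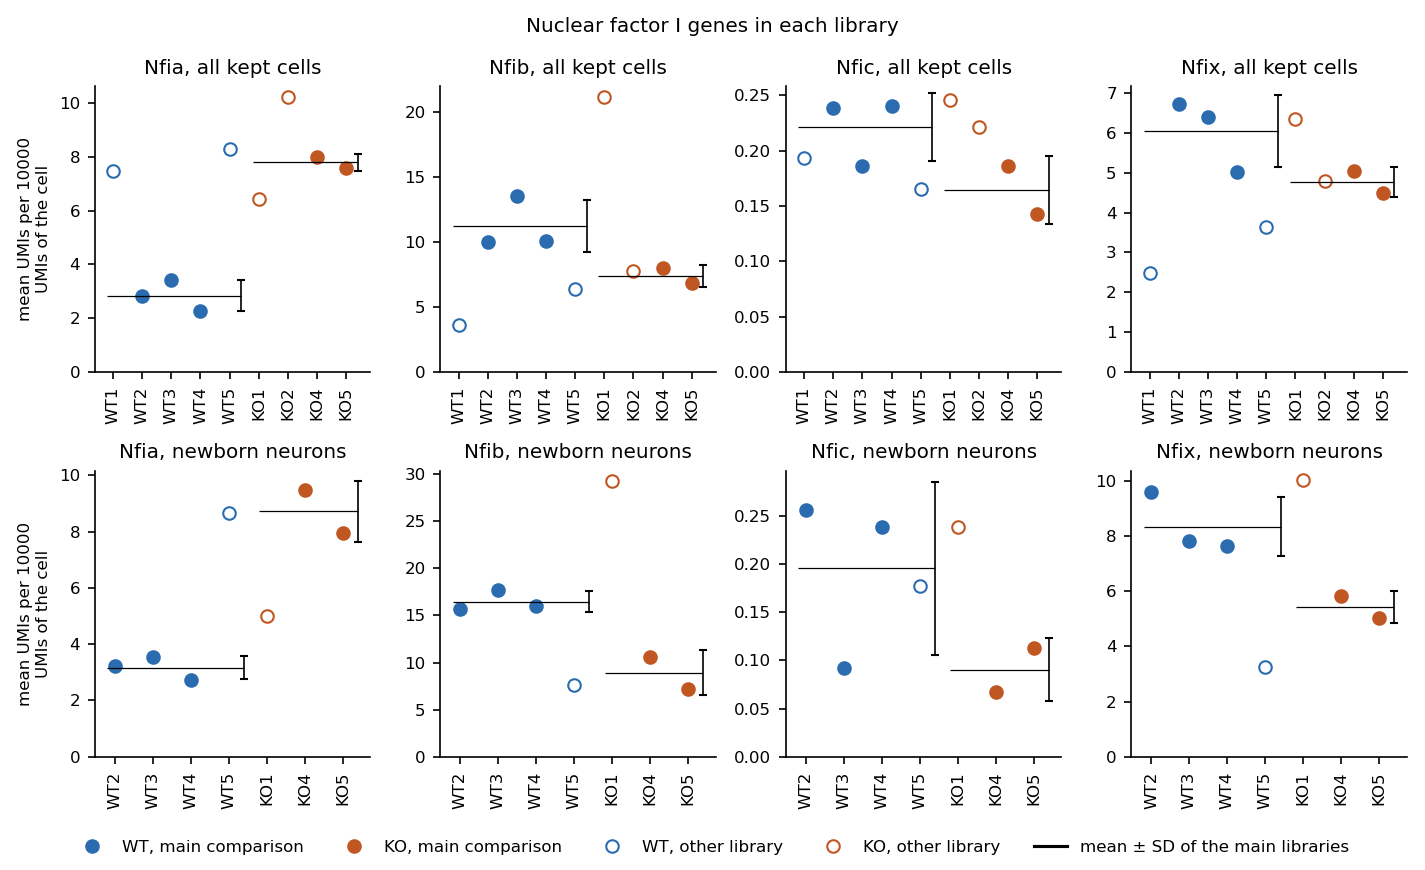
Level (mean UMIs per 10000 UMIs of a cell, vertical axes, different for each gene) of *Nfia*, *Nfib*, *Nfic* and *Nfix* in each library, in all kept cells (upper row, 9 libraries) and in newborn neurons (lower row, the 7 libraries with at least 20 such cells). Lines and bars are the mean and SD of WT2 to WT4 and of KO4 and KO5. Over all kept cells *Nfia* is at 2.27 to 3.43 in WT2 to WT4 and at 8.002 and 7.57 in KO4 and KO5, with the library labelled WT5 at 8.28, while *Nfib* is at 21.1 in the library labelled KO1.

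Of the libraries outside the comparison, WT1 and WT5 went against their labels, KO1 followed its label at most in part, and KO2 was on the side of KO4 and KO5. Over all kept cells of the library labelled WT5, *Nfia* was at 8.28, *Nfib* at 6.37 and *Nfix* at 3.63, so *Nfia* was above and the other 2 were below both KO libraries. WT1 had 7.48 of *Nfia*, 3.61 of *Nfib* and 2.49 of *Nfix*. KO2 had 10.2, 7.75 and 4.79. In the library labelled KO1, *Nfia* was at 6.44, between the groups, *Nfib* at 21.1, above all other libraries, and *Nfix* at 6.36, within the range of WT2, WT3 and WT4. With WT5 added to the WT group, the log2 change of *Nfia* was 0.89 (adjusted p = 0.678 from limma) and no gene was called (192 at an unadjusted p under 0.05). Taking all 9 libraries as labelled, *Nfia* had 0.75 (adjusted p = 0.957 from limma), *Nfib* turned to 0.26 and *Nfix* to 0.13, again with no gene called (295 at an unadjusted p under 0.05). The rise of *Nfia* was thus not called over all kept cells in any set of libraries that held WT5, and in the others the genotype and the other features that KO4 and KO5 share with WT5 cannot be told apart.

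Together, the 4 genes had 19.8, 23.5 and 17.6 UMIs per 10000 over all kept cells of the WT libraries and 21.2 and 19.0 in the KO libraries. The means, 20.3 ± 2.99 and 20.1 ± 1.57, did not differ detectably (exact permutation test, p = 1). The makeup of this sum differed more (UMIs are counted at 3′ ends and are not scaled by gene length). *Nfia* took 14.2, 14.6 and 12.9% of the sum in the WT libraries and 37.7 and 39.8% in the KO libraries. It took 54.3% in WT1, 44.9% in WT5, 18.8% in KO1 and 44.5% in KO2. In newborn neurons its part was 11.3, 12.1 and 10.2% in the WT libraries and 36.5 and 39.2% in the KO libraries, of a sum of 28.2 ± 1.38 and 23.2 ± 4.03 (exact permutation test, p = 0.1, the smallest possible). In radial glia-type cells the sum itself was higher in KO, at 22.3 ± 1.58 against 17.1 ± 0.573 (p = 0.1, exact permutation test), and in intermediate progenitor-type cells it was 24.9 ± 6.90 against 29.7 ± 1.66 (p = 0.4, exact permutation test).

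The share of newborn neurons with at least 1 UMI followed the levels. A UMI of *Nfia* was found in 50.0, 57.1 and 51.6% of cells in the WT libraries and in 81.8 and 82.5% in the KO libraries (median UMIs per cell 2308.5, 3080 and 3874 against 2325 and 2204). With each cell thinned to 1800 UMIs, the shares were 42.7, 42.9 and 33.3% against 75.5 and 72.8% (exact permutation test, p = 0.1). Thinned shares of *Nfib* were 84.4, 92.2 and 85.2% against 80.5 and 74.6% (p = 0.1, exact permutation test), and those of *Nfix* were 72.9, 66.4 and 68.5% against 62.3 and 64.0% (p = 0.2, exact permutation test). Detection of *Nfia* and *Nfib* in the same cell was close to the product of the separate thinned shares in each of the 5 libraries. Both were found in 38.5, 40.1 and 30.2% of cells in the WT libraries, where the products were 36.0, 39.5 and 28.4%, and in 60.5 and 53.5% in the KO libraries, where they were 60.7 and 54.3%.

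These shares need a background, since free RNA gives UMIs in cells that do not express a gene. In endothelial-type cells the thinned share with *Nfia* was 22.6% in WT4 (53 cells), 71.2% in KO4 (125 cells) and 79.1% in KO5 (67 cells), and in microglia-type cells it was 16.7, 61.5 and 69.6% in the same libraries (78, 122 and 46 cells), where the median depth before thinning was 2125.5 to 5272. The thinned share of *Nfia* in newborn neurons was below that of endothelial-type cells in KO5, so a UMI of *Nfia* in a single neuron of that library is not read as expression by that cell. Summed counts were compared with their intervals. Over WT2, WT3 and WT4, *Nfia* had 2.96 UMIs per 10000 in newborn neurons (95% exact Poisson interval 2.755 to 3.175, which covers counting error only), 4.22 in radial glia-type cells (3.92 to 4.54), 1.68 in endothelial-type cells (1.34 to 2.08) and 0.992 in microglia-type cells (0.702 to 1.36). Over KO4 and KO5 the values were 9.13 (8.49 to 9.805), 9.75 (8.87 to 10.7), 7.57 (6.85 to 8.35) and 6.77 (6.01 to 7.59). In KO5 alone, *Nfia* had 7.89 in newborn neurons (6.87 to 9.02) and 8.06 in endothelial-type cells (6.77 to 9.53), so it was not detectably higher in the neurons there. A rise of *Nfia* was thus present in the summed counts of endothelial-type and microglia-type cells too. The markers of these classes were lower in KO4 and KO5, as given above, so these cells are not read as purely non-neural.

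The same sums were taken for *Nfix* and *Nfib*. Over WT2, WT3 and WT4, *Nfix* had 8.09 UMIs per 10000 in newborn neurons (7.75 to 8.44), 1.16 in endothelial-type cells (0.881 to 1.50) and 2.85 in microglia-type cells (2.34 to 3.43). Over KO4 and KO5 it had 5.75 (5.24 to 6.29), 3.44 (2.96 to 3.98) and 3.81 (3.25 to 4.44), so the classes lay closer together. *Nfib* had 16.2 (15.7 to 16.7), 4.72 (4.14 to 5.36) and 7.15 (6.33 to 8.05) in WT and 9.67 (9.02 to 10.4), 6.03 (5.39 to 6.73) and 6.88 (6.12 to 7.71) in KO. In these sums, both genes were lower in the newborn neurons of KO, and *Nfix* was higher in its endothelial-type cells, beyond counting error. For *Nfib* in endothelial-type cells, the intervals of the sums only just missed each other. In single libraries, WT4 had 5.36 (4.57 to 6.25), KO4 6.13 (5.34 to 6.999) and KO5 5.825 (4.73 to 7.09), which overlapped. The interval of WT2 (3.23 to 5.499) also overlapped with those of KO4 and KO5, and that of WT3 (1.49 to 4.23, 13 cells) did not. A rise of *Nfib* in these cells was thus not established. In microglia-type cells the intervals of each gene overlapped between the genotypes.

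Under stricter limits on the cells, *Nfia* stayed higher in KO4 than in WT4, and it was also high in the library labelled WT5. With at least 4 endothelial markers, *Nfia* was at 1.07 in WT2 (26 cells) and 1.31 in WT4 (37 cells) and at 7.02 in KO4 (38 cells), and with at least 4 microglial markers it was at 1.002 in WT4 (57 cells) and 6.30 in KO4 (37 cells). Under the endothelial limit WT5 had 6.755 (15 cells). With at least 3 of the Dlx+ markers, Dlx+ interneuron-type cells had 2.04 in WT4 (423 cells), 4.76 in KO4 (21 cells) and 9.09 in WT5 (20 cells). These limits were chosen with the data in view.

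Across the classes of WT2, WT3 and WT4, the members had different orders. Only the 9 classes with at least 20 cells in each of the 5 compared libraries were ranked. *Nfia* was highest in the progenitor classes, at 4.82 ± 1.41 in cycling progenitor-type, 4.73 ± 0.690 in radial glia-type and 4.70 ± 0.532 in intermediate progenitor-type cells (SD, n = 3 each). The ranges of these neighbours overlapped, and a gap separated intermediate progenitor-type cells from deep layer-type neurons at 3.39 ± 0.471. Cajal-Retzius-type cells, which were not ranked, lay within this gap, at 4.19 in WT2 (35 cells) and 4.07 in WT4 (48 cells). Newborn neurons followed at 3.16 ± 0.412, and from there down to Dlx+ interneuron-type cells, at 1.97 ± 0.374, each class overlapped with the next. Within the 5 libraries of the comparison, *Nfia* was higher in intermediate progenitor-type cells than in newborn neurons by 0.41 on the log2 scale (standard error 0.065, adjusted p = 0.000906 from limma), and 6.03% of all genes differed between these classes. It was higher in radial glia-type cells by 0.33 (standard error 0.085, adjusted p = 0.0342 from limma, with 6.28% of genes called) and lower in Dlx+ interneuron-type cells by 0.45 (-0.45, adjusted p = 0.0124 from limma, with 0.402% of genes called). The call for radial glia-type cells was lost after thinning (adjusted p = 0.0639 from limma) and without WT2, WT3 or WT4 (0.18, 0.134 and 0.151), and that for Dlx+ interneuron-type cells without WT3 (0.0689).

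*Nfib* was highest in intermediate progenitor-type cells and newborn neurons, at 17.3 ± 1.13 and 16.5 ± 1.12, followed by deep layer-type neurons at 14.3 ± 2.85. A gap separated these 3 classes from the other 6 that were ranked. Those ran from 10.7 ± 1.12 in other Dlx+ cells to 8.41 ± 1.90 in other glutamatergic neurons and overlapped from each to the next. Cajal-Retzius-type cells, which were not ranked, lay on either side of the gap, at 11.0 in WT2 (35 cells) and 14.1 in WT4 (48 cells). *Nfix* was highest in newborn neurons, at 8.35 ± 1.08, above intermediate progenitor-type cells at 7.39 ± 0.0958 in each library. It was at 6.84 ± 1.15 in deep layer-type neurons, 3.31 ± 0.473 in radial glia-type cells, 3.66 ± 0.396 in Dlx+ interneuron-type cells and 3.12 ± 0.335 in dividing Dlx+ cells. Among the ranked classes, *Nfic* was highest in cycling progenitor-type cells, at 0.372 ± 0.0685, and radial glia-type cells, at 0.369 ± 0.116. Endothelial-type cells, which were not ranked, had more, with 0.544 in WT2 (29 cells) and 0.690 in WT4 (53 cells).

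Over the 5 libraries, *Nfib* and *Nfix* were lower in Dlx+ interneuron-type cells than in newborn neurons. The differences were -0.55 and -0.69 on the log2 scale (adjusted p = 0.0274 for both, from limma, with 0.402% of all genes called). Both calls were lost without WT2 (adjusted p = 0.109 and 0.275 from limma), WT3 (0.164 and 0.112) or WT4 (0.0518 for both). Against radial glia-type cells the differences were -0.56 and -0.76 and missed the threshold (adjusted p = 0.0720 and 0.0591 from limma). Neither gene differed detectably between intermediate progenitor-type cells and newborn neurons, with -0.0084 for *Nfib* and -0.13 for *Nfix* (adjusted p = 0.955 and 0.311 from limma). Within WT2, WT3 and WT4 alone, an alternative chosen after the data were seen, both classes were below newborn neurons. Radial glia-type cells differed by -0.85 for *Nfib* and -1.12 for *Nfix* (adjusted p = 2.61e-07 and 8.03e-08 from limma). Dlx+ interneuron-type cells differed by -0.77 and -1.004 (adjusted p = 1.28e-07 and 3.00e-08 from limma). More genes were called between classes in the WT libraries alone than in all 5 libraries, as given at the end.

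**Figure D2:**
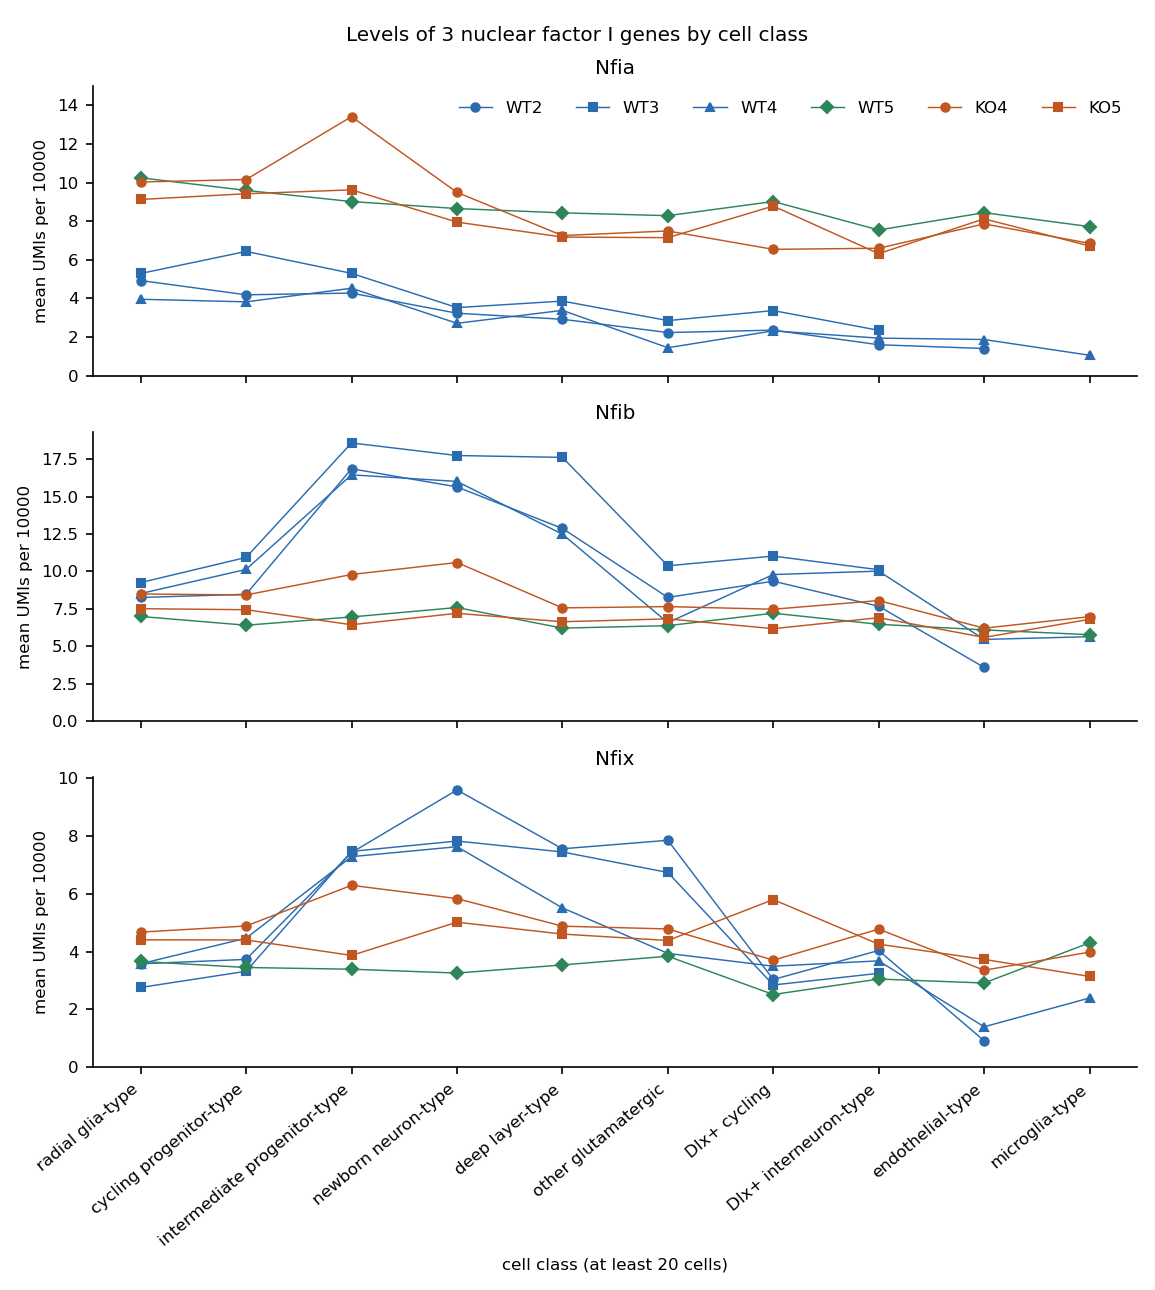
Level (mean UMIs per 10000 UMIs of a cell) of *Nfia*, *Nfib* and *Nfix* in 10 marker-gated cell classes of WT2 to WT5, KO4 and KO5, each point being 1 library with at least 20 cells of the class. In WT2 to WT4 *Nfia* is highest in the progenitor classes, *Nfib* in intermediate progenitor-type cells and newborn neurons, and *Nfix* in newborn neurons. In KO4, KO5 and the library labelled WT5, *Nfia* is higher in all of these classes and the classes lie closer together for *Nfib* and *Nfix*.

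A rise of *Nfia* in KO was called in all 9 classes with at least 20 cells in each of the 5 libraries (limma, adjusted p of at most 0.0149). Among neurons of the glutamatergic lineage, the log2 change was 0.91 in deep layer-type, 1.23 in newborn and 1.41 in other cells, where 0.804, 1.92 and 0.628% of all genes were called as higher. Among progenitors it was 1.12 in intermediate progenitor-type, 0.92 in cycling progenitor-type and 0.89 in radial glia-type cells, against 1.72, 1.46 and 2.15% of genes. In dividing, interneuron-type and other Dlx+ cells it was 1.23, 1.34 and 1.33, against 2.92, 0.432 and 0.393% of genes. The classes come from the same 5 animals and are not separate evidence of the difference.

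The largest of these changes was from 2.18 ± 0.704 to 7.32 ± 0.245 UMIs per 10000, in other glutamatergic neurons, and the smallest from 4.73 ± 0.690 to 9.58 ± 0.639, in radial glia-type cells. In intermediate progenitor-type cells, the levels were 4.28, 5.30 and 4.53 in the WT libraries and 13.4 and 9.62 in the KO libraries. The library labelled WT5 had 8.66 in newborn neurons, between the KO libraries. The call was lost in deep layer-type neurons without KO4 or KO5 (adjusted p = 0.193 and 0.221 from limma), in cycling progenitor-type cells without WT2, KO4 or KO5 (0.0748, 0.137 and 0.191) and in other Dlx+ cells without KO4 or KO5 (0.145 and 0.0592). With all libraries as labelled, none of the 9 calls held (adjusted p = 0.481 to 0.971 from limma).

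*Nfib* had a negative log2 change in each of the 9 classes, and 3 of them passed the test. Genes called as lower made up 0.117, 1.6 and 0.0355% of all genes in deep layer-type, newborn and other glutamatergic neurons, 2.29, 3.6 and 4.36% in intermediate progenitor-type, cycling progenitor-type and radial glia-type cells, and 6.09, 0.262 and 0.146% in dividing, interneuron-type and other Dlx+ cells. Besides the newborn neurons, it fell in intermediate progenitor-type cells by 1.03 on the log2 scale (standard error 0.18, adjusted p = 0.00141 from limma), from 16.9, 18.6 and 16.4 to 9.80 and 6.45. In deep layer-type neurons the fall was by 0.90 (adjusted p = 0.0333 from limma), from 14.3 ± 2.85 to 7.11 ± 0.654. These are the 3 classes in which *Nfib* was highest in WT. In radial glia-type cells it had 8.27, 9.26 and 8.53, then 8.50 and 7.52, with a change of -0.11 (adjusted p = 0.768 from limma). None of the 3 calls of *Nfib* held without KO5 (adjusted p = 0.255 in intermediate progenitor-type cells, 0.581 in newborn and 0.812 in deep layer-type neurons, from limma), and that in deep layer-type neurons also failed without KO4 (0.295) and without WT2 (0.0514).

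*Nfix* passed the test in none of the 9 classes, and its direction divided them. It was negative in all 4 classes of glutamatergic neurons and intermediate progenitors, at -0.54 to -0.32, and positive in the other 5, at 0.23 to 0.46, which are radial glia-type, cycling progenitor-type and the 3 Dlx+ classes. Intermediate progenitor-type cells had levels of 7.43, 7.47 and 7.29 in the WT libraries and of 6.29 and 3.87 in the KO libraries. Radial glia-type cells had 3.58, 2.76 and 3.58, then 4.67 and 4.41. In both classes the groups did not overlap, as was the case over all kept cells for 43.9% of all genes downward and 9.03% upward. With 1 library left out, *Nfix* was called as lower in intermediate progenitor-type cells without KO4 (-0.79, adjusted p = 0.0464 from limma) and in other glutamatergic neurons without WT4 (-0.57, adjusted p = 0.0422 from limma), and as higher in dividing Dlx+ cells without KO4 (0.72, adjusted p = 0.0267 from limma). *Nfic* passed in 1 class, dividing Dlx+ cells, with a log2 change of -0.37 (adjusted p = 0.0238 from limma), a call that was lost after thinning (-0.32, adjusted p = 0.149 from limma) and without any one of WT2, WT3, WT4 and KO5 (adjusted p = 0.0603 to 0.132 from limma).

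**Figure D3:**
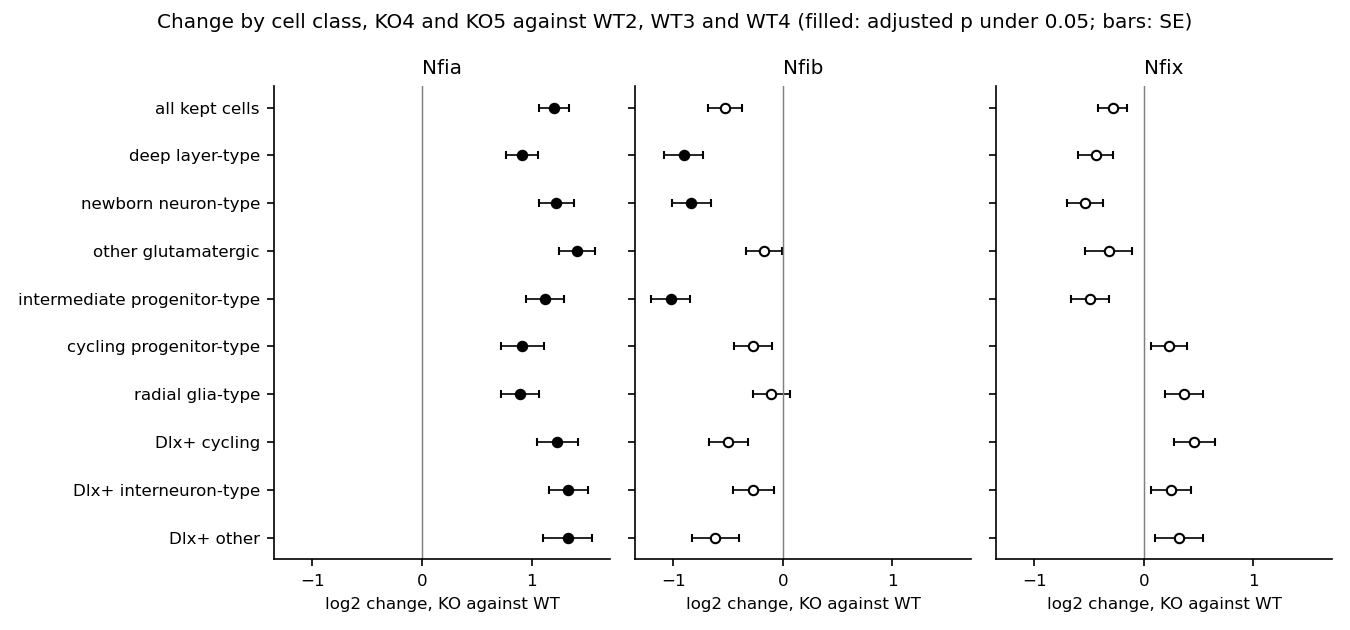
Log2 change of *Nfia*, *Nfib* and *Nfix* between KO4 and KO5 and WT2 to WT4 (horizontal axis, on the scale of log2(level + 1)) in all kept cells and 9 classes. Points are estimates and bars standard errors from limma-trend, and filled points have an adjusted p under 0.05. *Nfia* is called in each class, at 0.89 to 1.41, *Nfib* is called as lower in 3 classes and *Nfix* in none.

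Whether the change differed between classes was tested on the difference between classes within each library. The log2 change of *Nfix* in newborn neurons was below that in radial glia-type cells by 0.91 (-0.91, standard error 0.15, adjusted p = 0.000120 from limma) and below that in Dlx+ interneuron-type cells (-0.79, adjusted p = 0.00689 from limma), where 5.1 and 0.347% of all genes were called. The change of *Nfib* in newborn neurons was below that in radial glia-type cells by 0.73 (-0.73, standard error 0.13, adjusted p = 0.000389 from limma) and below that in Dlx+ interneuron-type cells (-0.57, adjusted p = 0.0382 from limma). The call of *Nfix* against radial glia-type cells held with any 1 library left out, and that of *Nfib* was lost without KO5 (-0.56, adjusted p = 0.125 from limma). Both calls against Dlx+ interneuron-type cells were lost without WT4 (adjusted p = 0.128 for *Nfib* and 0.0644 for *Nfix*, from limma), KO4 (0.139 and 0.17) or KO5 (1 and 0.598), and that of *Nfib* also with a pseudocount of 0.25 (0.0564). For *Nfia* neither difference passed, with 0.33 (adjusted p = 0.186 from limma) and -0.11 (adjusted p = 0.975 from limma).

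On the linear scale, *Nfib* in radial glia-type cells minus that in newborn neurons was -7.38, -8.47 and -7.48 UMIs per 10000 in the WT libraries and -2.10 and 0.308 in the KO libraries (exact permutation test, p = 0.1, the smallest possible). For *Nfix* the same difference was -6.02, -5.07 and -4.05, then -1.16 and -0.612 (p = 0.1, exact permutation test). The difference between a neuronal and a progenitor class that both genes had in WT was thus smaller in both KO libraries. It was -0.597 for *Nfib* and 0.403 for *Nfix* in the library labelled WT5. Dlx+ interneuron-type cells minus newborn neurons gave -7.96, -7.62 and -5.98, then -2.54 and -0.292 for *Nfib*, and -5.56, -4.58 and -3.95, then -1.06 and -0.761 for *Nfix* (p = 0.1 each, exact permutation tests). For *Nfia*, radial glia-type cells were above newborn neurons by 1.69, 1.77 and 1.25 in WT and by 0.537 and 1.17 in KO (p = 0.2, exact permutation test).

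The spread of a gene over 9 classes within a library (the SD of log2 levels) summarises these patterns. For *Nfib* it was 0.39, 0.38 and 0.38 in the WT libraries, and 0.17 and 0.092 in the KO libraries, with 0.083 in the library labelled WT5. For *Nfix* the values were 0.52, 0.54 and 0.37, then 0.19 and 0.14, with 0.14 in WT5, and for *Nfia* 0.45, 0.37 and 0.41, then 0.31 and 0.22, with 0.12 in WT5. For each of the 3 genes, the spread was smaller in both KO libraries than in each WT library. Against the other genes of the same library, the spread of *Nfia* did not rank lower in KO, as 92.6, 84.6 and 94% of genes had a smaller spread in the WT libraries and 98.6 and 89.6% in the KO libraries. For *Nfix* these shares were 95.7, 93.9 and 92.2%, then 92.8 and 52.6%, and for *Nfib* 89.3, 85.2 and 93.2%, then 87.8 and 17.4%. *Tcf4* itself went from 0.31, 0.36 and 0.30 to 0.12 and 0.045. The median over 1216 genes was 0.21, 0.20 and 0.12 in the WT libraries and 0.11 and 0.14 in the KO libraries, where WT4 lay within the range of KO.

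**Figure D4:**
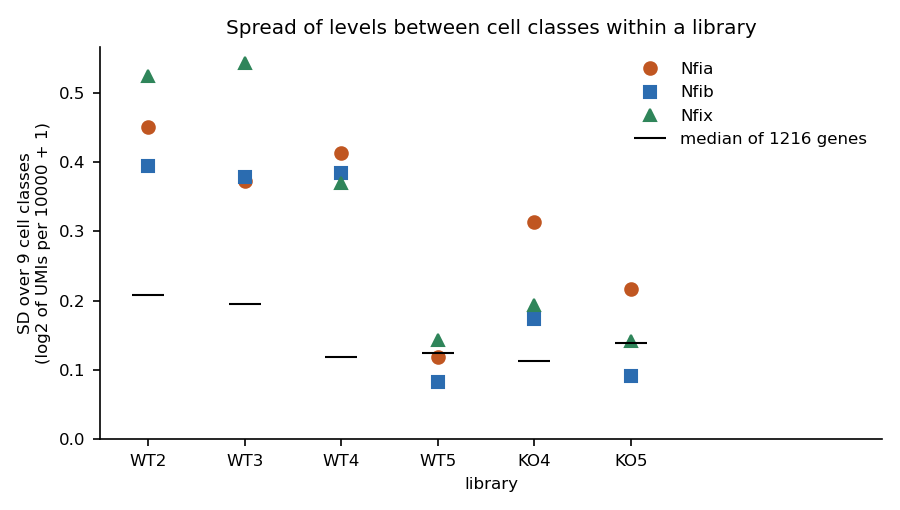
SD of log2 levels over 9 cell classes (vertical axis) of *Nfia*, *Nfib* and *Nfix* in WT2 to WT5, KO4 and KO5, beside the median of 1216 genes in the same library. The 3 NFI genes are at 0.37 to 0.54 in WT2 to WT4 and at 0.083 to 0.31 in KO4, KO5 and the library labelled WT5.

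The genes whose pattern was most like that of a member are given as a description, with Pearson's r over the 9 classes of WT2, WT3 and WT4, which share libraries and in part markers, among 4535 genes. Nearest to *Nfia* were *Sdha*, a subunit of mitochondrial complex II (r = 0.936), *Zfp106*, a zinc finger protein (0.929), *Golim4*, a Golgi membrane protein (0.922), *Nek6*, a mitotic kinase (0.919), and *Pura*, a single-strand nucleic acid binding protein (0.910), of which the first 2 were highest in cycling progenitor-type and the others in radial glia-type cells. Nearest to *Nfib* were *Rnd2*, *Sstr2*, *Unc5d*, *Sema3c* and *Neurod1* (0.927 to 0.967), which are also markers by which newborn neurons were chosen. Nearest to *Nfix* were *Nsmf*, *Tenm4*, *St7*, *Frmd4b* and *Med27* (0.962 to 0.977). Among the members, r was 0.770 for *Nfib* with *Nfix*, 0.323 for *Nfia* with *Nfib* and 0.120 for *Nfia* with *Nfix*.

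Over all kept cells of the 9 libraries, the genes nearest to *Nfia* of 4146 were *Slitrk2* (r = 0.938), *Sema4b* (0.932), *Taf6* (0.927), *Otub1* (0.909) and *Pan3* (0.906). *Pan3*, a subunit of a poly(A) deadenylase, had levels of 0.284, 0.419 and 0.310 in the WT libraries, 0.962 and 0.886 in the KO libraries, 1.14 in the library labelled WT5 and 0.953 in WT1. *Actb* held rank 29 (r = 0.835), *Tcf4* had r = -0.531, *Nfix* r = -0.508 and *Nfib* r = -0.406. These points are 9 libraries in which *Nfia* was at 7.48 to 10.2 in WT1, WT5, KO2, KO4 and KO5.

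Genes linked to NFI factors were counted in a list of 13, of which 8 were expressed enough for the test in newborn neurons. A rise was called for 2 of them and a fall for 1, where 1.92% of all genes were called as higher and 1.6% as lower, with a median log2 change of -0.21, against -0.041 over all 8553 genes. *Fabp7*, which encodes the fatty acid binding protein of radial glia, rose by 1.12 (adjusted p = 7.2e-06 from limma), from 6.57, 4.76 and 5.98 in the WT libraries to 12.3 and 15.02 in the KO libraries, with 10.6 in WT5 and 10.3 in KO1. *Sox9*, a factor of progenitors and glia, rose by 0.30 at low levels, from 0.138 to 0.407 on average (adjusted p = 0.0371 from limma). Both are at home in radial glia, whose markers were higher in these cells of KO as given above. *Zbtb20*, a zinc finger factor, fell by 1.23 (adjusted p = 1.52e-06 from limma), from 8.44, 5.86 and 7.87 to 3.27 and 1.94, with 1.92 in WT5 and 11.4 in KO1. *Gfap* and *Aqp4*, genes of mature astrocytes, were among the 5 too low to test.

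Of 9 long noncoding RNAs that stay in the nucleus, listed as a sign of how much nuclear RNA a cell holds, 5 were tested in newborn neurons and 1 was called, *Snhg11*, which was higher by 0.42 (adjusted p = 0.00106 from limma, with 1.92% of all genes called as higher). Its levels were low, at 0.0275, 0.00721 and 0.166 in the WT libraries and 0.311 and 0.553 in the KO libraries, with 1.24 in WT5. *Meg3* had 4.42, 2.18 and 6.59 in the WT libraries, 8.56 and 10.3 in the KO libraries and 12.45 in WT5, without overlap of the groups (log2 change 1.04, adjusted p = 0.303 from limma). *Kcnq1ot1* had 2.001, 2.18 and 2.13, then 1.55 and 1.06, again without overlap (-0.44, adjusted p = 0.0783 from limma). Over all kept cells, the groups did not overlap for 9.03% of all genes upward and 43.9% downward. The shares in newborn neurons are not given here. *Malat1*, the most abundant of them, had levels of 327, 209 and 186.5 in the WT libraries and 229 and 255 in the KO libraries, which overlapped.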

How the data were processed

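Neocortices were profiled with the Chromium 3′ v2 chemistry, with 1 library per animal. Per the labels' processing notes, the authors used Cell Ranger 2.1.0, Seurat 2.3.4 and R 3.6.0 on GRCm38 (mm10). What the authors deposited for each gene and cell is a UMI count for WT4, WT5, KO4 and KO5, and a natural log of 1 plus UMIs per 10000 for WT1, WT2, WT3, KO1 and KO2. From the latter, whole UMIs were recovered for 100% of values (within 1e-06). Of the WT libraries compared, WT4 alone was deposited in the same unit as KO4 and KO5.

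Cells were held to the study's limits (1000 to 5000 genes, 1800 to 10000 UMIs, under 6% mitochondrial), and those with over 1% haemoglobin UMIs were left out, which were 13.9% in KO4, 40.4% in KO5 and at most 4.34% elsewhere. No doublet caller was run, and cells with markers of 2 lineages made up 8.32 to 39.0% of a library and were left out as an alternative. A cell took the first class whose marker gate it met, and 1 class and 1 gene list are not reported here. Levels were log2-transformed with a pseudocount of 1, for genes of at least 0.1 in 2 or more libraries, and tested with limma-trend with robust variances (limma 3.58.1, R 4.3.3), with Benjamini-Hochberg adjustment over all genes and calls below 0.05. Single values were compared with 2-sided exact permutation tests over libraries. Shares were also computed on cells thinned to 1800 UMIs. edgeR 4.0.16 and DESeq2 1.42.0 on summed UMIs served as alternatives, beside other filters, scalings, depths, gates and sets of libraries. In simulated libraries of all kept cells with 200 of 8554 genes changed by 1 on the log2 scale, limma called 60.5% of these genes and 15 others, and edgeR 62% and 19 others. The members, gene lists, gates and tests were chosen with earlier results of these data known, and all kept cells and newborn neurons were taken as the main sets of cells after the data were seen. Named genes are the members, *Tcf4*, the 5 genes most like a member, and up to 4 genes of lowest p of each list. *Actb*, *Gfap*, *Aqp4* and *Malat1* were singled out after their values were seen.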

Additional observations from a re-analysis of the deposited data

Results flagged for a closer look

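In newborn neurons, *Nfia* in the library labelled WT5 (8.66 UMIs per 10000) lay apart from the other 3 WT libraries, which had at most 3.53. Over all kept cells, *Nfib* in the library labelled KO1 was 21.1, apart from the other 3 KO libraries, which had 6.81 to 8.02. The gap of these libraries to the rest exceeded Dixon's 95% limit, which 2 of 15 groups of libraries did, and chance gives about 1 in 20. What sets these libraries apart was not tested.

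The difference between KO4 and KO5 and WT2, WT3 and WT4 was not the same in newborn neurons and other classes, on the log2 scale, for *Nfib*, by -0.73 against radial glia-type and -0.57 against Dlx+ interneuron-type cells (adjusted p = 0.000389 and 0.0382 from limma), and for *Nfix*, by -0.91 and -0.79 against the same classes (adjusted p = 0.000120 and 0.00689 from limma). All 4 kept their direction on the linear scale (p = 0.1 each, exact permutation tests, the smallest possible). In the library labelled WT5, radial glia-type cells minus newborn neurons gave -0.597 for *Nfib* and 0.403 for *Nfix* in UMIs per 10000, nearer to KO4 and KO5 than to the WT libraries, and the genotype and what these 3 libraries share cannot be told apart.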

How the results depend on the processing

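Precision is limited by 5 libraries, by low counts of *Nfic* (3 to 40 UMIs per library in newborn neurons), and by libraries that go against their labels. *Nfia* over all kept cells had a log2 change of 1.21 and stayed positive in all alternatives. It was no longer called without a filter on low values (1.21, adjusted p = 0.0561 from limma), with WT5 added (0.89), with all libraries as labelled (0.75), and in the 8 libraries with shared numbers, with the replicate block (0.68) or without it (0.68). Leaving out 1 library in turn gave 1.10 to 1.32 for *Nfia*, -0.63 to -0.40 for *Nfib*, -0.096 to -0.042 for *Nfic* and -0.39 to -0.21 for *Nfix*. Without WT4, *Nfib* (-0.59) and *Nfix* (-0.39) were among 1394 called genes. With all libraries as labelled, *Nfib* turned to 0.26, *Nfix* to 0.13, the share of newborn neurons with *Nfix* to 0.027 percentage points and *Tcf4* to 0.901 UMIs per 10000. In the libraries of the block, *Nfib* turned to 0.43 and *Nfix* to 0.23, with and without it. The causes were not tested. The labels do not say what libraries of the same number share. Over the 4 pairs, correlations of their deviations were -0.018 (number 1), 0.278 (number 2), 0.193 (number 4) and 0.537 (number 5). The block is thus one of numbers and no known pairing by animal, and whether a number stands for a batch was not tested.

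In classes, all libraries as labelled turned *Nfib* to 0.52 in other glutamatergic and 0.35 in radial glia-type cells, and *Nfix* to 0.0054 in newborn neurons and 0.019 in other glutamatergic cells. *Nfib* in intermediate progenitor-type cells against newborn neurons (-0.0084) turned to 0.011 after thinning and 0.067 in WT2, WT3 and WT4 alone, and ranged from -0.036 to 0.025 with 1 library left out.

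The 98 called genes over all kept cells became 36 without a filter, 68 with a filter at 0.5, 154 with scaling without the most abundant genes, 0 with WT5 added, 0 with all libraries, 0 with the replicate block (198 at an unadjusted p under 0.05 from limma) and 0 in its libraries without it (145), and 0 to 1394 with 1 library left out (0 without WT2, with 1767 at an unadjusted p under 0.05, 18 without KO4, 13 without KO5, 1394 without WT4). edgeR called 137 and DESeq2 330, of which 92 and 98 were among the 98. Summed over the classes, 2747 calls became 4 with all libraries, and 828 (without KO5) to 4146 (without WT4) with 1 left out, with 1359 without WT2 and 1573 without WT3. Between classes, 1201 calls became 3183 in WT2, WT3 and WT4 alone and 337 (without WT4) to 2325 (without KO5) with 1 left out, with 349 without WT2 and 358 without WT3. For effects that differ between classes, 522 calls became 0 with all libraries and 104 (without KO5) to 492 (without WT4) with 1 left out, with 326 without KO4.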
